A study of Arabidopsis thaliana with 24 samples.

Results

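The shoot of young Arabidopsis thaliana seedlings was compared with a single expanding leaf, across 20777 loci measured on 6 of the study's 24 Affymetrix ATH1 arrays. The 3 seedling arrays carry RNA from the vegetative part of wild-type Col-0 seedlings at growth stage 1.03, grown with 0 mM mannitol. The 3 expanding leaf arrays carry RNA from leaf 3 alone of the same wild type, collected 15 days after sowing at a leaf area of 7 mm2, also with 0 mM mannitol. Arrays were chosen by title and stress label. Plants of both groups grew in vitro on MS medium at 22 °C with 16 h of light and 8 h of darkness, each sample pooled many plants, and the 3 replicates are independent experiments per the series' design text. The other arrays carry leaf 3 when proliferating (day 9) and mature (day 22), and all 4 kinds of sample with 25 mM mannitol; they share the estimate of the spread with the 6 arrays, place values among the leaf stages and repeat the comparison on mannitol. One label field describes mannitol medium for every sample, controls included, so title and stress label decided the group. The labels give no age in days for the seedlings and no hour of harvest for any sample. Organ composition, age and time of harvest therefore differ together between the groups and cannot be told apart.

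A seedling shoot holds cotyledons, the shoot apex and leaves at several stages at once, whereas leaf 3 on its own holds a single organ that is leaving cell division and growing by cell expansion. Dividing tissue is marked by transcripts of mitosis and DNA replication, and maturing leaf tissue by those of photosynthesis and vascular differentiation. A large share of plant transcripts also follows the hour: the circadian clock is a loop in which dawn genes such as CCA1 and LHY alternate with afternoon and evening genes such as GI, TOC1 and PRR5. Since whole tissue was extracted, fewer cells of a type and less RNA per cell cannot be told apart in any value below.

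Expression levels are on the log2 scale of the deposited table, on which a difference of 1 is a factor of 2. Every difference is seedling minus expanding leaf, so a positive one is higher in seedlings. A locus was called when its Benjamini-Hochberg adjusted p from limma, over all 20777 loci, was under 0.05. The array medians ran from 6.022 to 6.085 in seedlings and from 5.964 to 6.044 in expanding leaves. The correlation between arrays was 0.995 to 0.996 within seedlings and 0.990 to 0.995 within expanding leaves, against 0.968 to 0.976 between the groups. By group means the seedling correlated at 0.975 with expanding leaf, at 0.946 with mature leaf and at 0.896 with proliferating leaf. On the markers, 6 of 6 floral organ genes, 15 of 15 seed storage and embryo genes and 15 of 18 root genes lay below the dim level of 5.11 (the 40th percentile of all values) in both groups. So did 7823 of all 20777 loci.

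Of the 20777 loci, 6814 (32.8%) were called. Seedlings were higher at 3013 loci (14.5%) and lower at 3801 (18.3%), and 44.2% of the called loci were therefore higher. The median difference of all loci was -0.08, and the median size of a called difference was 0.52 against a median standard error (SE) of 0.115. The larger differences lay mostly on the seedling side. At a size of 1 or more, 718 loci were higher and 327 lower in seedlings; at 2 or more, 164 were higher and 44 lower; at 3 or more, 44 were higher and 4 lower. At 6358 of the 6814 called loci the 3 seedling values did not overlap the 3 expanding leaf values. Over all 20777 loci, called or not, the groups lay apart at 3709 with seedlings higher and at 5171 with seedlings lower. Separation rests on the same values as the calls and adds no support to them.

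The largest rise was at AT3G62550, which has no symbol beyond its locus code. Its levels were 11.53, 11.42 and 10.96 in seedlings, against 4.72, 4.70 and 4.78 in expanding leaves (difference 6.58, SE 0.131, limma adjusted p 6.43e-20). It lies below the dim level on every expanding leaf array, and it averaged 4.34 in proliferating and 9.56 in mature leaf 3, so the expanding leaf shares its low level with the proliferating leaf. LTP2, a secreted lipid transfer protein, measured 9.42, 10.08 and 10.31 in seedlings, against 4.68, 5.19 and 4.47 in expanding leaves (difference 5.16, SE 0.268, limma adjusted p 1.5e-12). The groups were far apart, with more spread in both than at AT3G62550. PEL3, an acyltransferase needed for the leaf cuticle, had 8.31, 8.04 and 8.45 in seedlings, against 3.77, 3.998 and 3.98 in expanding leaves (difference 4.35, SE 0.210, limma adjusted p 4.39e-13). CDEF1, a secreted esterase that degrades cutin, had 8.12, 8.22 and 8.65 in seedlings, against 4.17, 4.24 and 4.06 in expanding leaves (difference 4.17). LTP2, PEL3 and CDEF1 had their highest group mean in proliferating leaf 3, at 12.27, 10.29 and 12.08, and the seedling lay between that leaf and the expanding one.

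A different pattern was shown by AT1G56300, also without a symbol beyond its locus code. It measured 8.66, 8.14 and 8.12 in seedlings, against 3.31, 3.64 and 3.49 in expanding leaves (difference 4.83), and it averaged 3.38 in proliferating and 3.55 in mature leaf 3, below the dim level in all 3 leaf stages. MEE14 had 10.73, 10.41 and 10.07 in seedlings, against 5.39, 5.23 and 5.35 in expanding leaves (difference 5.08), with 5.11 in proliferating and 7.68 in mature leaves. Both loci were high on every seedling array and on no expanding leaf array. The other rises among the 12 largest were at AT4G30650, AT2G33850, AT4G22490, AT4G29030, AT5G33370 and the RNA-binding protein gene GRP7, with differences between 4.20 and 4.90.

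Among the 12 largest falls, PCC1, a pathogen-responsive and circadian-regulated gene, had the largest difference and the widest spread. It measured 8.20, 6.66 and 6.21 in seedlings, against 11.67, 10.70 and 11.03 in expanding leaves (difference -4.11, SE 0.475, limma adjusted p 4.51e-07). The first seedling array was well above the other two. ACD6, a membrane protein of salicylate-dependent defence, had 5.66, 5.61 and 5.26 in seedlings, against 8.72, 8.50 and 8.74 in expanding leaves (difference -3.14, limma adjusted p 2.44e-09). AO, the L-aspartate oxidase of NAD synthesis, had 5.33, 5.24 and 5.51 in seedlings, against 8.32, 8.30 and 8.40 in expanding leaves (difference -2.98). BMY3, of the beta-amylase family, had 6.73, 6.72 and 6.99 in seedlings, against 9.98, 9.63 and 9.63 in expanding leaves (difference -2.94). At these 4 genes, as at all 12, separation of the groups was a condition of being chosen. The Myb factors LHY, RVE8 and ASG4, which are related to CCA1, were also among the 12, with ASG4 at -2.88, and the other 5 were AT5G36230, AT1G65870, AT5G03350, AT2G27420 and AT4G33420, with differences between -3.02 and -2.63.

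**Figure D1:**
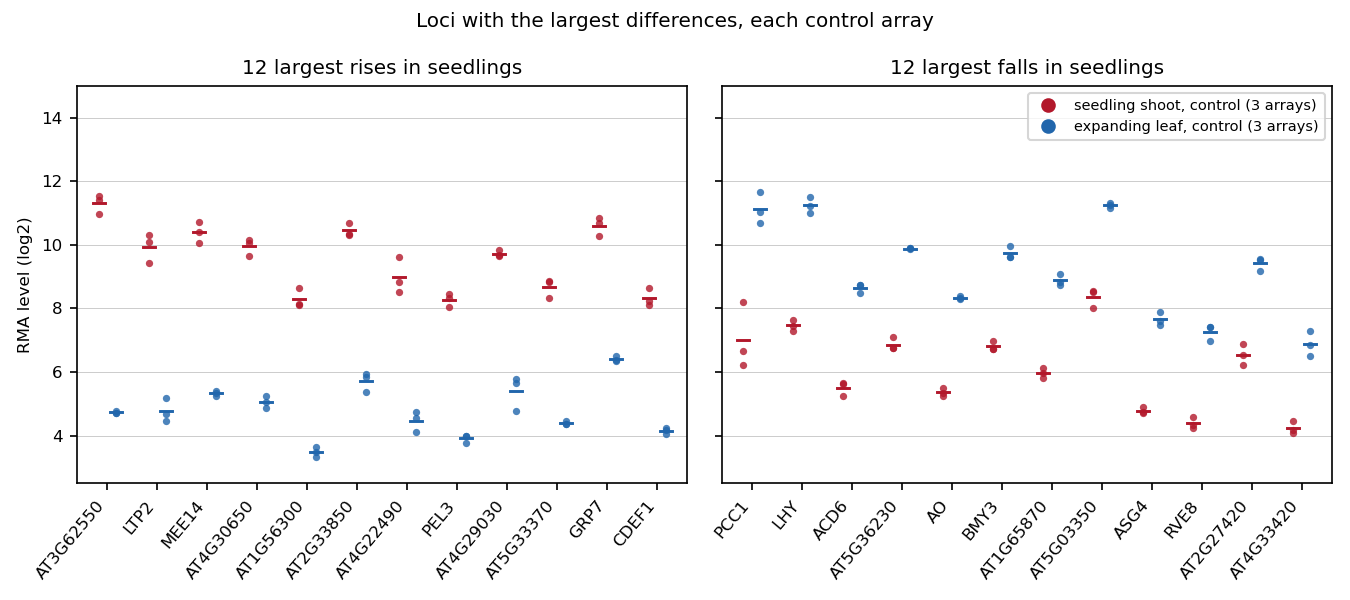
Log2 expression level (vertical axis) of the 12 loci with the largest rises (left) and the 12 with the largest falls (right) on the 3 control seedling arrays (red) and the 3 control expanding leaf arrays (blue); bars are group means. The 24 loci were chosen among those whose groups do not overlap, and PCC1 has the widest spread among seedling arrays.

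The clock genes moved in opposite directions by phase. Of the 8 measured morning genes, 7 were lower in seedlings and 1 was higher, with a median difference of -1.84; of the 8 measured evening genes, all 8 were higher, with a median of 1.19. Over all loci, 18.3% were called lower and 14.5% higher, and the median was -0.08. LHY measured 7.45, 7.30 and 7.64 in seedlings, against 11.50, 11.02 and 11.22 in expanding leaves (difference -3.78, SE 0.162, limma adjusted p 1.16e-13). CCA1, its close partner at dawn, measured 8.61, 8.50 and 8.73 in seedlings, against 10.97, 10.89 and 10.69 in expanding leaves (difference -2.23, SE 0.103, limma adjusted p 2.39e-13). In both genes the lowest expanding leaf array exceeded the highest seedling array by more than the spread within either group.

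The related Myb factors RVE8, which activates evening genes, and RVE1, which links the clock to auxin, followed. RVE8 measured 4.35, 4.23 and 4.59 in seedlings, against 7.40, 6.97 and 7.42 in expanding leaves (difference -2.88). RVE1 measured 6.92, 6.31 and 6.86 in seedlings, against 9.29, 9.08 and 8.95 in expanding leaves (difference -2.41). RVE8 was below the dim level on all seedling arrays and above it on all expanding leaf arrays. The coactivators LNK2 (AT3G54500) and LNK1 (AT5G64170) differed by -1.45 and -0.71, and RVE2 by -0.94 (limma adjusted p 0.00184). The exception was PRR7, a pseudo-response regulator that peaks later in the day than CCA1 and represses it: it measured 9.91, 9.67 and 9.74 in seedlings, against 8.24, 8.30 and 8.29 in expanding leaves (difference 1.49, SE 0.102, limma adjusted p 1.08e-10).

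Of the evening genes, GRP7, an RNA-binding protein in a loop slaved to the clock, had the largest difference. It measured 10.68, 10.84 and 10.29 in seedlings, against 6.37, 6.52 and 6.35 in expanding leaves (difference 4.20, SE 0.142, limma adjusted p 1.38e-15). GI, which stabilises a clock F-box protein and promotes flowering, measured 8.75, 8.35 and 8.22 in seedlings, against 5.61, 5.97 and 5.70 in expanding leaves (difference 2.68, SE 0.147). PRR5, an afternoon repressor of CCA1 and LHY, measured 6.72, 6.54 and 5.87 in seedlings, against 4.10, 4.28 and 4.01 in expanding leaves (difference 2.25, SE 0.163). All 3 were separated on every array. TOC1, the evening repressor, differed by less, at 6.84, 6.92 and 6.52 in seedlings, against 5.87, 5.86 and 5.70 in expanding leaves (difference 0.95, limma adjusted p 1.01e-06). Smaller rises were seen at the GRP7 relative GRP8 (AT4G39260, 1.44), at ELF3 (0.64) and ELF4 (0.63), whose proteins act together in the evening complex, and at PRR3 (0.44). Of the 8 evening genes, 2 were below the dim level in both groups, among them ELF4, with means of 4.41 in seedlings and 3.78 in expanding leaves.

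Averaged over each list, the array means of the morning genes ran from 7.26 to 7.52 in seedlings and from 8.91 to 9.18 in expanding leaves. Those of the evening genes ran from 7.05 to 7.38 in seedlings and from 5.55 to 5.67 in expanding leaves. No array of either group crossed into the range of the other. The leaf stages were not all alike: LHY averaged 10.99 in proliferating and 11.67 in mature leaf 3, close to its 11.25 in the expanding leaf, whereas CCA1 averaged 9.47 in proliferating, 10.85 in expanding and 11.60 in mature leaves, and TOC1 averaged 7.28 in the proliferating leaf, above its seedling mean of 6.76.

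**Figure D2:**
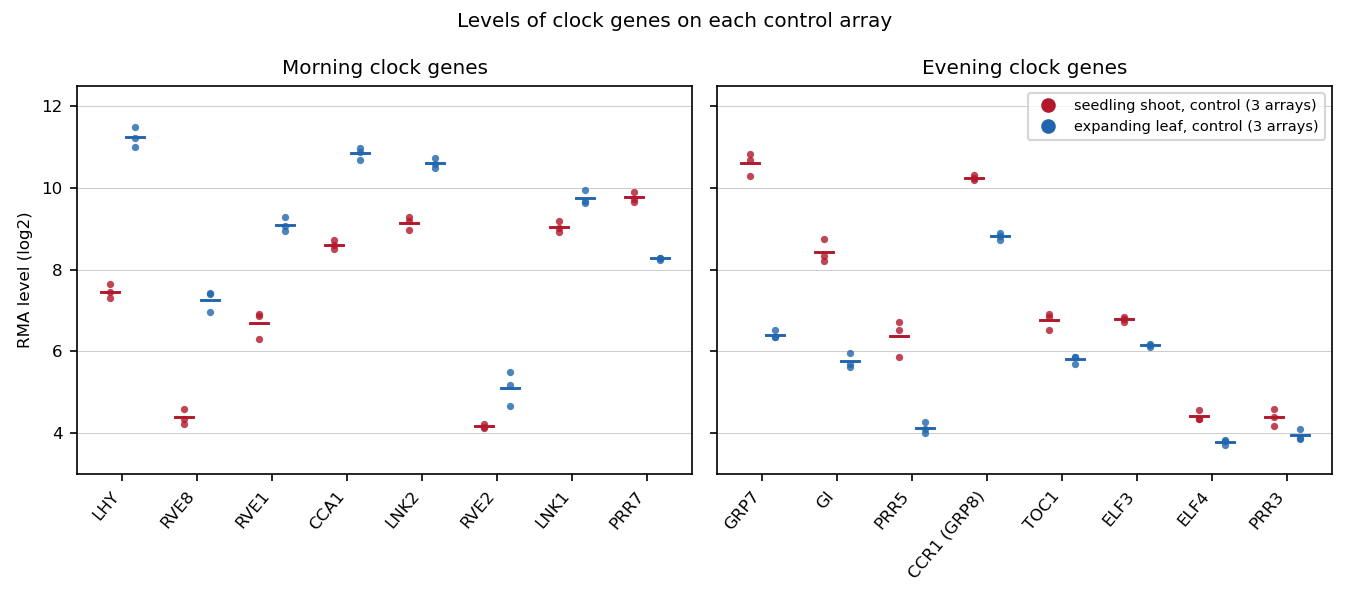
Log2 expression level (vertical axis) of the 8 morning genes (left) and 8 evening genes (right) of the clock lists on the 3 control seedling arrays (red) and the 3 control expanding leaf arrays (blue); bars are group means. Seedlings are lower at 7 morning genes and higher at PRR7 and at all 8 evening genes.

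Light signalling genes were divided: 6 of the 12 measured rose (50%) and 5 fell (41.7%) in seedlings, with a median of 0.12. Among all loci 14.5% were called higher and 18.3% lower. The bZIP factors HY5 and HYH, which drive light-induced transcription, both fell. HYH measured 5.50, 5.49 and 5.89 in seedlings, against 8.32, 8.00 and 8.05 in expanding leaves (difference -2.50, limma adjusted p 5.66e-12), and HY5 differed by -1.54 (limma adjusted p 2.03e-09). Their partner LZF1, a B-box protein that promotes photomorphogenesis, rose, with 9.25, 9.17 and 8.79 in seedlings against 6.13, 5.68 and 5.91 in expanding leaves (difference 3.16, limma adjusted p 1.53e-13). Thus every seedling array was below the expanding leaves for HYH and above them for LZF1. The light-stress proteins ELIP1 and ELIP2, which bind pigments, differed by -1.68 and -2.09. The photoreceptor gene PHYA rose by 0.86 and the shade-response factor HFR1 by 1.09.

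Chlorophyll synthesis showed 2 rises and 5 falls among 16 measured genes (median -0.05), and the rises were at the enzymes that need light to reduce protochlorophyllide. PORB measured 12.25, 12.06 and 12.03 in seedlings, against 8.80, 8.81 and 8.82 in expanding leaves (difference 3.31, SE 0.211, limma adjusted p 4.08e-11), and averaged 9.21 in proliferating and 7.03 in mature leaf 3. PORA, the form used in greening seedlings, measured 6.55, 5.88 and 6.86 in seedlings, against 4.77, 5.31 and 5.07 in expanding leaves (difference 1.38, limma adjusted p 2.12e-06). No array overlapped at either gene, and PORB was higher in seedlings than at any leaf stage. The 5 falls were between -0.46 and -0.31, led by GUN4, an activator of magnesium chelatase.

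All 20 measured genes of mitosis were higher in seedlings and none was lower, with a median difference of 1.21 and a range of 0.35 to 2.40, where 14.5% of all loci were called higher. HIK, a kinesin that builds the plate between dividing cells, measured 7.01, 6.94 and 7.82 in seedlings, against 4.85, 4.89 and 4.83 in expanding leaves (difference 2.40, SE 0.163, limma adjusted p 1.02e-10). SYP111, the syntaxin of the same plate (KNOLLE), measured 8.60, 8.79 and 9.34 in seedlings, against 7.03, 7.05 and 7.08 in expanding leaves (difference 1.86, SE 0.146). The mitotic cyclin CYCB1;1 measured 5.72, 5.83 and 6.38 in seedlings, against 4.48, 4.60 and 4.38 in expanding leaves (difference 1.49, SE 0.144, limma adjusted p 3.25e-08). At each of these the third seedling array was the highest and the groups stayed apart. The mean of the 20 genes ran from 6.30 to 6.93 on the seedling arrays and from 5.27 to 5.31 on the expanding leaf arrays.

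Genes of DNA replication moved less: 7 of 17 measured rose (41.2%, against 14.5% of all loci) and none fell at the threshold (median 0.36). The called ones included CDC6, which loads the replicative helicase (0.80), PCNA1, the sliding clamp (0.76), and MCM3, a helicase subunit (0.71). The seedling had an intermediate place in both lists. The median level of the mitotic genes was 6.47 in seedlings, against 8.75 in proliferating, 4.97 in expanding and 4.48 in mature leaf 3. For the replication genes it was 6.42 in seedlings, against 8.99 in proliferating, 6.15 in expanding and 5.31 in mature leaves. Among 7 measured inhibitors of cyclin-dependent kinases, SIM, which promotes endoreduplication, was higher (0.69) and ICK1 was lower (-0.69), with LGO at -0.32. The 1 rise (14.3%) and 2 falls (28.6%) stand beside 14.5% and 18.3% of all loci. The 2 falls became 1 in the fit of the 6 arrays alone. They also became 1 without seedling array 2 or 3 or expanding leaf array 1 or 3. The 1 rise became 2 without expanding leaf array 1.

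Regulators of leaf growth gave 8 rises (33.3%) and 2 falls (8.33%) among 24 measured genes (median 0.24), beside 14.5% and 18.3% of all loci. GRF1, a growth-regulating factor that sustains cell proliferation in leaves, measured 6.40, 6.50 and 6.94 in seedlings, against 4.35, 4.53 and 4.04 in expanding leaves (difference 2.31, SE 0.175, limma adjusted p 6.54e-10). GRF3 and GRF2 rose by 1.59 and 1.09, and AN3, the coactivator these factors bind, rose by 1.28. ANT, an organ-size factor, rose by 0.62. TCP2 and TCP24, of the class that ends proliferation, also rose, by 1.02 and 0.87, while TCP4 and TCP10 of the same class differed by -0.33 and -0.29. These 2 falls were not stable, whichever array was left out. Their number was 0 without seedling array 1 or 2 or expanding leaf array 1, and 1 without any of the other 3 arrays or in the fit of the 6 arrays alone.

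**Figure D3:**
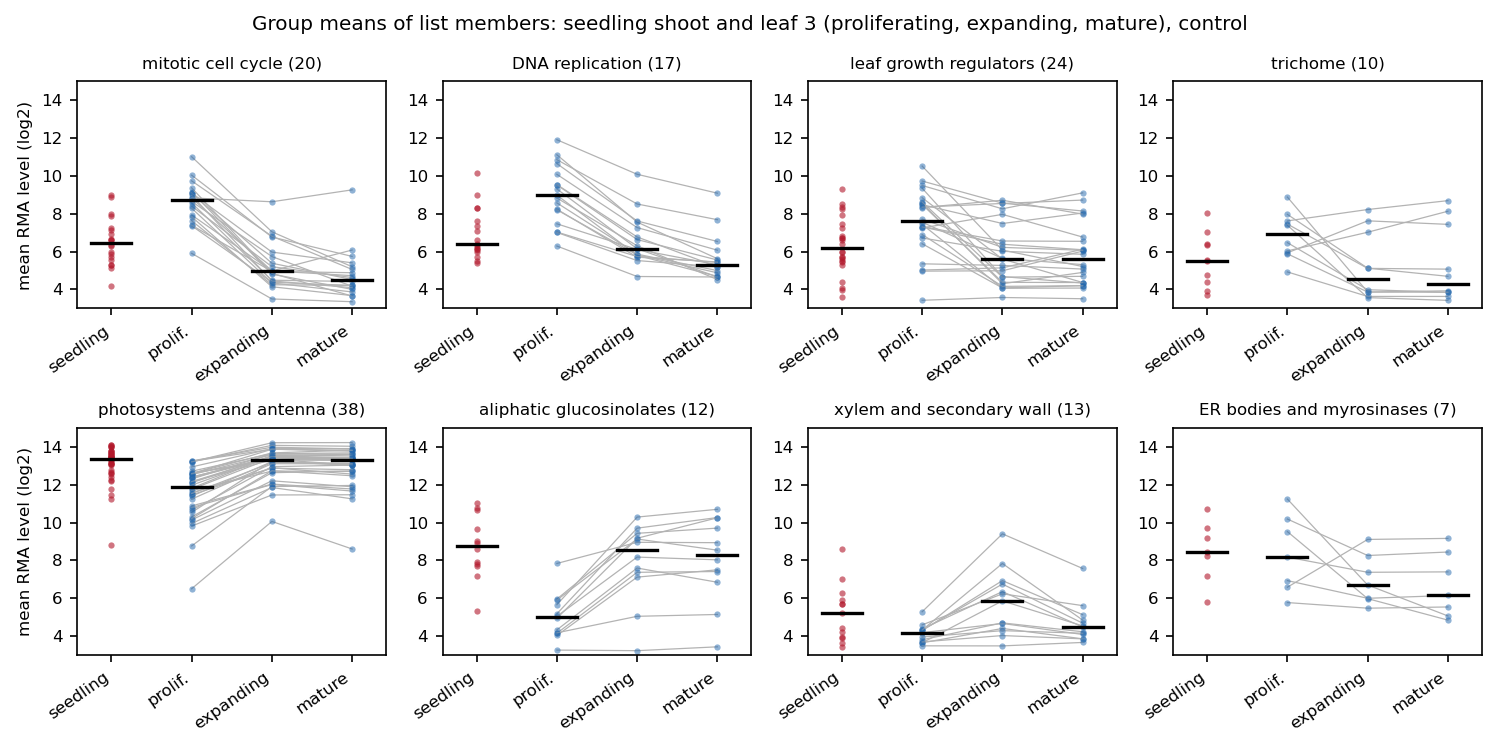
Mean log2 level of each list member (points) in control seedlings (red) and in control leaf 3 when proliferating, expanding and mature (blue, lines join a gene's stages); black bars are list medians and the number of genes is in brackets. For the mitotic genes the bars stand at 6.47 in seedlings and at 8.75, 4.97 and 4.48 in the 3 leaf stages; for the photosystem genes the seedling bar at 13.35 lies beside that of the expanding leaf.

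Of 25 measured genes that mark the shoot meristem and organ boundaries, 15 were below the dim level in both groups. Of the 25, 3 rose (12%) and 4 fell (16%), with a median of 0.07. Neither share exceeded that of all loci, 14.5% higher and 18.3% lower. ATH1, a homeodomain factor of the shoot apex and leaf base, measured 8.47, 8.23 and 8.41 in seedlings, against 6.97, 6.83 and 7.29 in expanding leaves (difference 1.34, limma adjusted p 1.52e-07), with no overlap. AGO10, an Argonaute that protects the meristem, rose by 0.74 and BOP2, of the leaf base, by 0.67. In proliferating leaf 3, ATH1 averaged 8.24, near its seedling mean of 8.37, and AGO10 averaged 9.31, above its seedling mean of 7.41. BOP2 averaged 5.35 in that leaf, below its seedling mean of 6.06. The stem cell genes STM, WUS and CLV3 were not called, with differences of 0.07, 0.08 and -0.05. PHB, PHV and REV, which set the upper side of the leaf, differed by -0.64, -0.33 and -0.29, and CUC1 by -0.33. Without expanding leaf array 2 the rises became 5, and the falls became 2 without seedling array 1 and 1 without seedling array 2 or expanding leaf array 1, as in the fit of the 6 arrays alone.

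Genes of vegetative phase and flowering time were split, with 6 rises (21.4%) and 9 falls (32.1%) among 28 measured (median -0.12). The shares of all loci were 14.5% and 18.3%. TOE2, an AP2-type repressor of flowering that is high in juvenile plants, measured 6.44, 6.27 and 6.26 in seedlings, against 4.96, 4.95 and 4.89 in expanding leaves (difference 1.39, SE 0.121, limma adjusted p 5.93e-09). SPL11, of the SPL family that promotes the adult phase, measured 5.27, 5.15 and 5.29 in seedlings, against 6.52, 6.77 and 6.40 in expanding leaves (difference -1.33, limma adjusted p 6.7e-09). Neither gene overlapped between the groups. In proliferating leaf 3, however, TOE2 averaged 6.51 and SPL11 5.11, near their seedling means of 6.32 and 5.24. The differences at these genes are thus not particular to seedlings. Other SPL genes fell too, SPL5 (-1.03), SPL2 (-0.71) and SPL10 (-0.62), whereas SPL9 rose by 0.70. The MADS-box genes AGL24, a flowering promoter, and AGL8 (FRUITFULL) differed by -1.58 and -0.86, and the repressor SVP by 0.54. AGL24 averaged 6.86 in proliferating leaf 3, above its seedling mean of 4.53.

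Of 13 measured xylem and secondary wall genes, 8 fell and none rose (median -0.64), where 18.3% of all loci fell. XCP2, a protease of maturing vessels, measured 8.46, 8.54 and 8.81 in seedlings, against 9.33, 9.41 and 9.47 in expanding leaves (difference -0.80, limma adjusted p 0.00022). The laccases IRX12 and LAC17, which polymerise lignin, differed by -0.82 and -0.68. Of these 13 genes 6 were dim in both groups, and 5 falls were counted when dim loci were left out. The whole list's mean ran from 5.12 to 5.42 on seedling arrays and from 5.61 to 5.91 on expanding leaf arrays. Its median level was 5.20 in seedlings, against 4.18 in proliferating, 5.86 in expanding and 4.48 in mature leaf 3. The seedling was thus lower than the expanding leaf but not than the other leaf stages. SEOR1, a protein of sieve elements, differed by -0.92 and HB-8, of the procambium, by -0.70. Their phloem and procambium list had 4 falls (36.4%) and 1 rise (9.09%) of 11 and a median of -0.01. The rise, SWEET12, was lost without seedling array 1 or expanding leaf array 1 or 3.

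Genes for the synthesis of lignin precursors were lower as well: 10 of 15 measured genes fell and none rose (median -0.78). That share is 66.7%, against 18.3% of all loci, whose median was -0.08. PAL1, the entry enzyme from phenylalanine, measured 9.30, 9.30 and 9.54 in seedlings, against 11.36, 11.20 and 11.32 in expanding leaves (difference -1.91, SE 0.107, limma adjusted p 4.91e-12). C4H, the next enzyme, measured 9.09, 9.03 and 9.14 in seedlings, against 10.87, 10.49 and 10.70 in expanding leaves (difference -1.60, SE 0.098). At both genes the 3 seedling arrays agreed closely and lay below the other group. ATCAD4, HCT and the cinnamoyl-CoA reductase gene CCR1 (AT1G15950) differed by -1.48, -0.80 and -0.84.

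Flavonoid genes share those first steps, and 7 of 16 measured fell (43.8%) while 3 rose (18.8%), with a median of -0.29. For all loci these shares were 18.3% and 14.5%. F3H differed by -2.09, and TT4, the chalcone synthase at the head of the branch, measured 9.65, 9.58 and 9.90 in seedlings, against 11.87, 11.33 and 11.73 in expanding leaves (difference -1.93, limma adjusted p 1.59e-07). FLS1, which makes flavonols, differed by -1.19, and the glycosyltransferase UGT78D2 by -1.10. The genes that rose belong to the anthocyanin branch or its control: DFR (1.93), the transferase GSTF12 (1.28) and MYBL2, a repressor of that branch (1.97). DFR and GSTF12 had their highest group mean in proliferating leaf 3, at 10.002 and 9.61.

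Epidermal lists were mixed. In the trichome list 5 of 10 measured genes rose (50%) and 2 fell (20%), with a median of 0.44. The shares over all loci were 14.5% and 18.3%. The activators GL2, MYB0 (GLABRA1) and MYB23 rose by 1.91, 1.65 and 1.22. TRY, a mobile inhibitor of trichome fate, measured 5.43, 5.66 and 5.54 in seedlings, against 7.65, 7.69 and 7.56 in expanding leaves (difference -2.09, SE 0.161, limma adjusted p 8.82e-10), apart on every array. The rises were 3 when dim loci were left out, and the falls became 1 without seedling array 1 or 3 or expanding leaf array 2. Among 16 measured stomatal lineage genes 5 rose and 5 fell (31.2% each). EPF2, a peptide made by early lineage cells, rose by 0.89, and STOMAGEN, a peptide from the mesophyll that promotes stomata, differed by -0.93. The rises numbered 2 without seedling array 3 and 3 without expanding leaf array 1 or 3, and the falls 3 without dim loci. In the cuticle and epidermis list of 27 genes 7 rose (25.9%) and 5 fell (18.5%). LACS1, an acyl-CoA synthetase of wax and cutin synthesis, was up by 1.93 beside PEL3, described above.

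In the ER body list 6 of 7 measured genes were higher in seedlings (85.7%, against 14.5% of all loci) and none was lower (median 1.19). ER bodies are compartments of the Brassicales that hold myrosinases and are abundant in the epidermis of young seedlings. PYK10, the myrosinase that fills them, measured 10.54, 10.87 and 10.78 in seedlings, against 7.51, 5.59 and 6.99 in expanding leaves (difference 4.03, SE 0.292, limma adjusted p 3.31e-10). The seedling arrays agreed and the expanding leaf arrays spread widely below them. NAI2, which is needed to form ER bodies, measured 8.38, 8.42 and 8.46 in seedlings, against 6.15, 5.77 and 5.999 in expanding leaves (difference 2.44). The lectin JR1 and TSA1, a relative of NAI2, rose by 1.43 and 1.19. The list's median level was 8.42 in seedlings and 8.17 in proliferating leaf 3, against 6.70 in expanding and 6.14 in mature leaves. Against the proliferating leaf, 1 gene was called higher and 2 lower in seedlings. NAI2 averaged 9.52 in that leaf, above its seedling mean of 8.42. The high level was thus not particular to seedlings.

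In the aliphatic glucosinolate list, 4 of 12 measured genes rose (33.3%, against 14.5% of all loci) and none fell (median 0.40). IMS2, a synthase that extends methionine chains (MAM3), measured 6.83, 7.13 and 7.55 in seedlings, against 3.24, 3.15 and 3.28 in expanding leaves (difference 3.95, SE 0.204, limma adjusted p 1.37e-12). It averaged 3.25 in proliferating and 3.43 in mature leaf 3, so it lay above the dim level in seedlings and below it at every leaf stage. BCAT4 and MAM1, earlier in the same chain extension, rose by 1.62 and 1.34; they were above the dim level in expanding leaves, with means of 9.17 and 9.70. The indole glucosinolate list had 3 rises and 3 falls among 15 genes (20% each, near the 14.5% and 18.3% of all loci). IGMT5, a methyltransferase, was up by 2.41. Without dim loci 1 rise was left in the indole list.

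Photosynthesis genes differed little. Of 38 measured genes of the photosystems and antenna, 1 rose (2.63%) and 2 fell (5.26%), and the median difference was 0.02. Among all loci 14.5% were higher and 18.3% lower, with a median of -0.08. Their median level was 13.35 in seedlings and 13.33 in expanding leaves, against 11.89 in proliferating leaf 3. Those called were FNR2 (0.53), the antenna protein LHCB4.3 (-1.23) and Lhca6 (-0.45). The rises were 2 without expanding leaf array 1, without dim loci or with an intensity trend, and 3 after quantile normalization. The falls were 5 after centring and 4 without dim loci or with an intensity trend. In photorespiration, the salvage path that follows oxygenation by Rubisco, 5 of 10 fell (50%) and none rose (median -0.34). GLDP2, of the glycine decarboxylase, measured 11.50, 11.36 and 11.47 in seedlings, against 12.39, 12.56 and 12.53 in expanding leaves (difference -1.05, SE 0.088, limma adjusted p 3.15e-09), without overlap. The catalase CAT2 (AT4G35090) differed by -0.51. Calvin cycle genes had 1 rise (6.25%) and 4 falls (25%) of 16. The falls became 1 without seedling array 3. They became 2 without seedling array 1 or 2 or expanding leaf array 1 or 3 or after quantile normalization. Cytosolic ribosomal protein genes had 6 falls of 23 (26.1%, against 18.3% of all loci) and a median of -0.15. Their falls became 1 without seedling array 1 and 3 without expanding leaf array 1, and 2 in the fit of the 6 arrays alone.

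Transcripts that rise when sugar is short were higher in seedlings, 11 of 20 measured (55%) with 1 fall (5%) and a median of 0.50. Among all loci 14.5% were called higher and 18.3% lower. BGAL4, a beta-galactosidase, measured 7.27, 7.29 and 6.68 in seedlings, against 4.34, 4.33 and 4.34 in expanding leaves (difference 2.74, SE 0.163, limma adjusted p 1.16e-11). The expanding leaf arrays were nearly equal and all below the dim level. GDH2, a glutamate dehydrogenase, rose by 1.87, EXL2 by 1.69 and the trehalose phosphate synthase-like TPS10 by 1.64, while DIN9, a mannose phosphate isomerase, differed by -1.52. SEN1 (AT4G35770), a gene induced by darkness and senescence, measured 8.80, 8.36 and 7.60 in seedlings, against 4.23, 4.35 and 4.34 in expanding leaves (difference 3.95, SE 0.262, limma adjusted p 7.44e-11). It averaged 8.78 in mature leaf 3, and the senescence list of 13 measured genes, SEN1 included, had 3 rises (23.1%) and 2 falls (15.4%).

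Genes that turn stored seed oil into sugar gave 9 rises (52.9%, against 14.5% of all loci) and no falls among 17 measured (median 0.27). Without expanding leaf array 2, 1 fall was called. The peroxisomal citrate synthases CSY3 and CSY2 rose by 1.82 and 1.26, and PKT3, the thiolase that ends each round of peroxisomal beta-oxidation, rose by 1.01. CSY3 measured 8.16, 7.97 and 7.72 in seedlings, against 5.95, 6.06 and 6.37 in expanding leaves, with no overlap, and averaged 8.05 in mature leaf 3, near the seedling mean of 7.95. The seed storage genes themselves were dim in both groups.

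**Figure D4:**
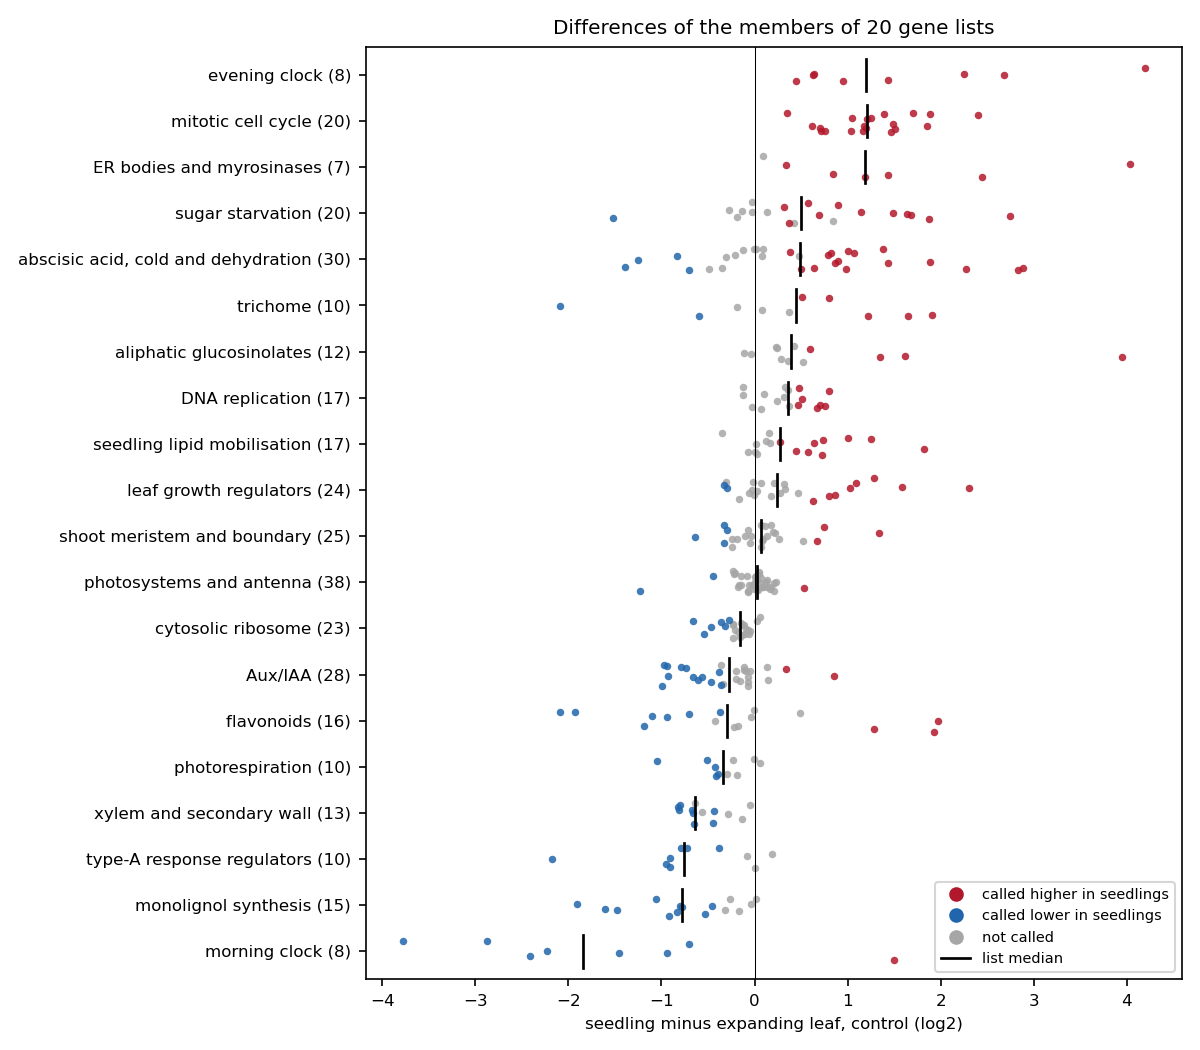
Seedling minus expanding leaf difference (log2, horizontal axis) of every measured member of 20 gene lists, with the number of members in brackets; red points were called higher in seedlings, blue points lower, grey points were not called, and black bars are list medians. The evening clock and mitotic lists lie wholly on the right, while 7 of 8 morning clock genes and most monolignol genes lie on the left.

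Among hormone lists, the type-A response regulators, which cytokinin induces and which damp its signal, had 7 falls and no rise of 10 measured (median -0.76). That share is 70%. Over all loci 18.3% were called lower and 14.5% higher. ARR15 measured 5.56, 5.96 and 5.89 in seedlings, against 7.95, 8.04 and 7.94 in expanding leaves (difference -2.17, SE 0.184, limma adjusted p 3.95e-09). ARR7, ARR6 and ARR9 differed by -0.95, -0.91 and -0.79. The Aux/IAA repressors of auxin response had 12 falls (42.9%) and 2 rises (7.14%) of 28 (median -0.27), with IAA12, IAA18 and IAA6 at -0.99, -0.79 and -0.94. Their rises became 1 without seedling array 1. In the gibberellin list of 21, 3 rose (14.3%) and 5 fell (23.8%), near the shares of all loci. The receptor GID1A and the early synthesis genes GA2 and GA3 rose by 1.37, 1.33 and 1.13, and the repressor RGL2 differed by -1.41.

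Genes of abscisic acid, cold and dehydration gave 16 rises (53.3%) and 4 falls (13.3%) of 30 measured (median 0.49). For all loci the shares were 14.5% and 18.3%. Of the 30 genes, 11 were dim in both groups. On mannitol the list gave 11 rises and 8 falls (median 0.20). Control seedlings were higher at 4 and lower at 18 against mature leaf 3 (median -0.97). Against proliferating leaf 3 they were higher at 19 and lower at 6. COR15B, a chloroplast protein that protects membranes in the cold, measured 9.54, 8.96 and 8.96 in seedlings, against 6.15, 5.98 and 6.68 in expanding leaves (difference 2.88, SE 0.214, limma adjusted p 4.7e-10). GolS2, which makes galactinol, LTI78 and the dehydrin COR47 rose by 2.83, 2.27 and 1.88. The falls included GolS1 (-1.39) and HAB1, a phosphatase that blocks abscisic acid signalling (-1.26). Of 21 salicylate and defence genes, 6 fell (28.6%, against 18.3% of all loci) and 2 rose, with a median of -0.20. WRKY70 measured 5.41, 5.19 and 4.89 in seedlings, against 7.59, 7.72 and 7.66 in expanding leaves (difference -2.49), and PBS3 differed by -0.95. Of these 21 genes, 13 were dim in both groups, and the rises became 1 without seedling array 1 or expanding leaf array 2, or without dim loci. The jasmonate list had 3 rises and 3 falls of 19 (15.8% each, near the shares of all loci). OPR3, a synthesis enzyme, was at 1.03 and the methyltransferase JMT at -1.93. The jasmonate falls were 5 in the fit of the 6 arrays alone.

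Water channels and wall enzymes gave smaller shifts. Of 18 measured aquaporins 8 fell (44.4%) and 1 rose (5.56%), beside 18.3% and 14.5% of all loci (median -0.19). The tonoplast channel GAMMA-TIP differed by -0.63 and TIP2;2 by 1.21. Of 18 expansins, which loosen walls, 3 rose (16.7%) and 4 fell (22.2%), near the shares of all loci, with EXPA11 at 1.68 and EXLB1 at -1.55. Of 33 xyloglucan endotransglucosylases 7 rose (21.2%) and 5 fell (15.2%), XTH4 by 0.91 and XTH32 at -1.09. Those falls became 3 without seedling array 1 or 3 or expanding leaf array 1, and 9 without expanding leaf array 3. They were 3 in the fit of the 6 arrays or after quantile normalization and 8 after centring. Transcripts of the plastid genome gave 2 rises and 16 falls of 73 (21.9%, near the 18.3% of all loci; median -0.09, against -0.08 of all loci), with the largest fall at ATCG00190 (-1.06). The falls became 10 without seedling array 2 or expanding leaf array 1 and 9 without seedling array 3, and the rises became 1 without seedling array 1, 5 without expanding leaf array 1, and 4 with quantile normalization, an intensity trend or a replicate block, or without dim loci.

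The same stages were compared on 25 mM mannitol, a mild osmotic stress, with 6 other arrays. There 2918 loci (14%) were higher and 3776 (18.2%) lower in seedlings. Of the 3013 loci higher in control seedlings, 2261 were also higher on mannitol, which is 75% of the control list and 77.5% of the mannitol list, and 5 were lower. Of the 3801 lower loci, 2483 were also lower on mannitol, which is 65.3% of the control list and 65.8% of the mannitol list, and 4 were higher. Over the 20777 loci the differences correlated at a Pearson r of 0.888, a description across genes that are not independent. Of the clock genes on mannitol, LHY differed by -3.79, CCA1 by -2.08, GRP7 by 4.27 and GI by 2.54, and all 8 evening genes were higher; of the morning genes 6 were lower, and RVE2 was at -0.41 (limma adjusted p 0.166).

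The mitotic list gave 17 rises and no fall of 20 on mannitol, with a median of 0.88, and the ER body list again 6 rises of 7. Aliphatic glucosinolate genes gave 11 rises of 12 and a median of 0.94 there; BCAT4 differed by 2.42 and FMO GS-OX1 by 1.44, against 1.62 and 0.59 in controls. The rapid stress response list had 10 falls and no rise of 20 on mannitol, against 1 fall (TCH2, -1.35) and 1 rise (ERF2, 0.46, lost without seedling array 1 or 2 or expanding leaf array 1 or 3) in controls. The control falls were 2 in the fit of the 6 arrays, after centring or quantile normalization and without dim loci; the rises were 2 after quantile normalization and 0 after centring or without dim loci. Whether these list counts differ between the media was not tested as such. The difference was tested locus by locus: 39 loci (0.188%) were called for a change of the seedling minus expanding leaf difference between the media, 10 with a more positive and 29 with a more negative difference on mannitol. PCC1, with the largest control fall, differed by -1.22 on mannitol (limma adjusted p 0.0527), and the change itself was not called (limma adjusted p 0.0904).

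**Figure D5:**
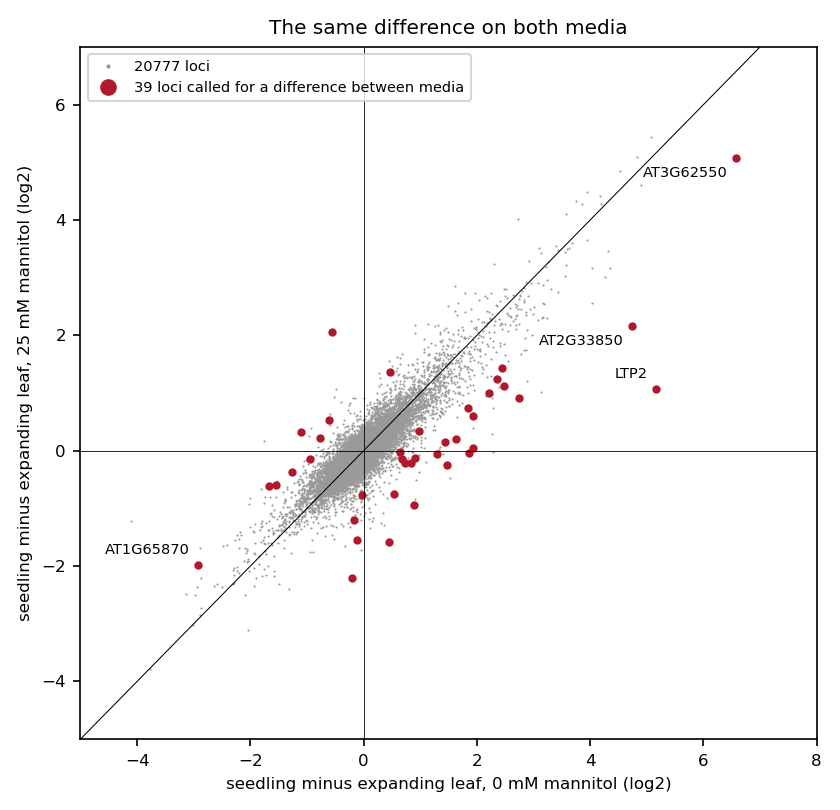
Seedling minus expanding leaf difference on 25 mM mannitol (vertical axis, log2) against the same difference in controls (horizontal axis, log2) for 20777 loci (grey); red points are the 39 loci called for a change between the media, and the line marks equality. Most loci lie along the line with r = 0.888, and LTP2 and AT2G33850 fall well below it on the seedling side.

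The seedling was also set against all 9 control arrays of leaf 3. At 1013 loci (4.88%) the lowest seedling array lay above all 9, and at 1103 loci (5.31%) the highest seedling array lay below all 9. Of these, 697 (68.8%) and 595 (53.9%) showed the same on the mannitol arrays. With a gap of more than 1, a size chosen after the values were seen, 97 loci lay above and 20 below, and 95 and all 20 of them lay outside on the same side on mannitol as well. The widest gap above was at AT1G56300, whose lowest seedling array exceeded every leaf array by 4.48. It was followed by PHS2, a cytosolic glucan phosphorylase that handles sugar from starch breakdown, with a gap of 3.22. PHS2 measured 11.08, 10.80 and 10.56 in seedlings, against 7.16, 7.32 and 7.31 in expanding leaves.

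IMS2, the Rubisco assembly chaperone RbcX1, the nudix hydrolase NUDT8, PORB, DR4 and LZF1 came next among the loci with a symbol, with gaps between 2.46 and 2.94. On the low side LHY had the widest gap, 3.24, then AT5G36230 (2.62), RVE8 (1.90), HYH (1.69) and F3H (1.48).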

How the data were processed

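Total RNA was hybridised to 24 ATH1 arrays in 8 groups of 3. The authors deposited a log2 level for each locus on each array, made with RMA per the submitters' processing notes; neither its version nor the probe grouping is given in the sources used here. The values run from 2.515 to 14.355, and no further normalization was added. In R 4.3.3, limma 3.58.1 (lmFit, eBayes) fitted 8 group means to all 24 arrays (residual df 16, prior SD 0.137 with 6.02 prior df), two-sided, with Benjamini-Hochberg adjustment over 20777 loci. On simulated data for the control comparison with 20777 loci, 28 of 50 differences of 0.5 and 50 of 50 differences of 1 were recovered. Far fewer loci were changed there than the 6814 called in the data, so the adjusted threshold was stricter in the simulation. No pair of arrays was identical (0 pairs), and the number of arrays limits the precision.

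Symbols come from the RefSeq gene table (TAIR10.1), which held 20508 of the loci. The comparison and the 47 gene lists were chosen with earlier results of these data known. Of 941 list memberships 856 were measured, and 4 loci that matched a family name only by synonym were left out. Genes named are those with the 12 widest rises and 12 widest falls among called loci that do not overlap between groups and whose higher mean is at or above the 40th percentile, up to 4 called members of the smallest p in each list, and any clock or meristem member; other list members were chosen after their values were seen. Alternatives were other normalizations, fits, filters, a replicate block and leaving out each array.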

Additional observations from a re-analysis of the deposited data

Results flagged for a closer look

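At 9 of the named genes the seedling minus expanding leaf difference itself changed between mannitol and control medium (limma interaction, adjusted over all loci). The change, mannitol minus control, was -4.09 at LTP2 (limma adjusted p 6.16e-06): it averaged 11.94 in seedlings and 10.87 in expanding leaves on mannitol, against 9.94 in seedlings and 4.78 in expanding leaves in controls. At LACS1, which serves the same surface lipids, the change was -1.88 (limma adjusted p 0.000585), with 8.23 in seedlings and 8.17 in expanding leaves on mannitol, against 7.95 in seedlings and 6.02 in expanding leaves in controls. For both, the seedling means moved by less than the expanding leaf means.

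The changes at AT3G62550 and AT2G33850 were -1.50 and -2.58 (limma adjusted p 0.000277 and 0.0036), and seedlings stayed higher on both media. NAI2 changed by -1.01 (limma adjusted p 0.0348), with 8.95 in seedlings and 7.52 in expanding leaves on mannitol. ALMT12, an anion channel of guard cells, changed by -0.82 (limma adjusted p 0.0456), and its difference on mannitol was -0.14. The differences of 3 genes that were lower in control seedlings moved toward 0: HY5 by 0.96 (limma adjusted p 0.0195), AT1G65870 by 0.95 (limma adjusted p 0.029) and IAA6 by 0.80 (limma adjusted p 0.0495). The causes were not tested.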

How the results depend on the processing

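The control comparison called between 5445 loci (fit to its 6 arrays only) and 7499 (arrays centred on their medians, 2713 higher and 4786 lower), beside 6814. Leaving out each array in turn gave 5588 to 6776 calls, 2567 to 2874 of them higher and 3021 to 3937 lower; on mannitol it gave 5335 to 6158, with 2433 to 2743 higher and 2902 to 3415 lower. Asking for a difference of at least 1 left 1045 loci in controls (718 higher, 327 lower) and 920 on mannitol (630 higher, 290 lower). The replicate block gave 6987 calls in controls (3072 higher, 3915 lower) and 6877 on mannitol; deviations of same-numbered control arrays correlated at -0.007, 0.295 and 0.155, and of mannitol arrays at 0.039, 0.141 and 0.034. They were not all above 0.1, not every array correlated best with its own number, and the labels do not say that a number marks a shared experiment, so the numbers were not taken to pair the samples. No named gene changed direction in the control comparison under any alternative. Of the 216 named genes, 1 lost its call after centring, 8 after quantile normalization, 10 in the fit of 6 arrays and 4 to 13 when single arrays were left out.

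The 3 arrays a group limit all tests. Differences of 0.5 were recovered in 28 of 50 simulated loci, but far fewer loci differed there than were called in the data. That share is therefore not the share recovered in the data. With 1 value per locus, probes shared between related genes cannot be seen, and loci near the dim level carry compressed differences. Stage, age and hour of harvest cannot be told apart.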

Other observations

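Several genes close to the clock lists, picked after their values were seen, moved with the morning genes. COL2 and COL1, relatives of the flowering gene CONSTANS, differed by -2.06 and -1.40 (limma adjusted p 4.51e-11 and 1.08e-08). COL2 measured 9.35, 9.17 and 9.46 in seedlings, against 11.51, 11.33 and 11.32 in expanding leaves. BBX19, another B-box gene, differed by -1.50 (limma adjusted p 9.67e-11). CDF2, a Dof-type repressor of CONSTANS, differed by -1.52 (limma adjusted p 3.89e-07), while its relatives CDF1 and CDF3 were not called, with limma adjusted p of 0.0633 and 0.735. On mannitol the differences were -1.93 at COL2, -1.32 at COL1, -1.38 at BBX19 and -1.18 at CDF2.

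Nutrient and stress lists were short, so their counts are small. Over all loci, 14.5% were called higher and 18.3% lower. The shares called higher and lower were 8.33% and 8.33% for iron and 27.3% and 0% for phosphate starvation. They were 10% and 30% for nitrate, and 0% and 20% for heat shock. NAS3, a nicotianamine synthase of metal transport, measured 6.04, 5.98 and 5.46 in seedlings, against 3.45, 4.28 and 4.11 in expanding leaves (difference 1.88, limma adjusted p 4.23e-08), in an iron list with 1 rise and 1 fall of 12; that fall, OPT3, was lost without seedling array 1, 2 or 3 or expanding leaf array 1 or 2, after quantile normalization and with an intensity trend, and 2 falls were called in the fit of the 6 arrays alone. SPX1, a phosphate sensor, rose by 1.38 in a phosphate starvation list with 3 rises and no fall of 11. In the nitrate list of 10 genes 3 fell and 1 rose (median -0.07): the enzymes NIA2 and NIR1 and the transporter NRT1.1 differed by -0.61, -0.64 and -0.71, and GDH1 by 0.71. The rises were 2 without expanding leaf array 3, without dim loci or in the fit of the 6 arrays alone. HSP70 (AT3G12580) differed by -2.29 and averaged 11.21 in mature leaf 3, in a heat shock list with 2 falls of 10, of which 1 was left without any single seedling array or without expanding leaf array 1. Mitochondrial genome transcripts had 5 falls and no rise of 31 (16.1%, near the 18.3% of all loci), with 23 dim in both groups; the falls became 3 without seedling array 2, 8 without expanding leaf array 3, 10 after centring and 2 without dim loci.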
